A study of Homo sapiens with 12 samples.

Results

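The 8 genes described here (SAT1, ODC1, AMD1, SRM, SMS, AZIN1, OAZ1 and OAZ2) make, break down and regulate the polyamines, and they were taken with every probe set that the array's annotation assigned to 1 of them alone. That gave 15 probe sets of 22215 tested and 8 of 11963 genes. A further probe set, listed for SAT1 together with another gene, was not used. RCC4 cells, an established clear cell renal carcinoma line known to lack functional VHL, were reverse-transfected with a non-targeting siRNA (siNT) or an siRNA against YAP (siYAP) for 2 days and then treated for 7 hours with erastin at 1 µM or with its solvent DMSO. Each of the 4 combinations of siRNA and treatment held 3 Affymetrix arrays that the submitters call biological replicates. The sources used here do not say how many siRNA sequences were used or how separately the replicates were grown, so p-values measure only the spread between these arrays. Values are log2 expression after RMA, the robust multi-array average, which equalises the arrays; a change in total RNA per cell would therefore not be seen.

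Polyamines (putrescine, spermidine and spermine) are small cations that bind nucleic acids and are needed for growth. ODC1, ornithine decarboxylase, makes putrescine and is the rate-limiting enzyme; AMD1 supplies decarboxylated S-adenosylmethionine, which SRM (spermidine synthase) and SMS (spermine synthase) use to lengthen the chain. SAT1 acetylates spermidine and spermine for export or back-conversion, and it has been linked to lipid peroxidation and ferroptosis, the iron-dependent cell death that erastin can set off by blocking cystine import. Antizymes (OAZ1 and OAZ2) bind the ODC1 protein, send it to the proteasome and limit polyamine uptake, while AZIN1, an inactive relative of ODC1, sequesters the antizymes. Much of this control acts on translation and protein stability, which arrays do not measure.

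Promoter sequences are shown for the 2 genes whose every probe set passed the test after YAP silencing, SAT1 and SRM, and for ODC1, whose gene is known to be driven through E-boxes. They run from 250 bases before to 50 after a transcription start and come from RefSeq on GRCh38.p14, 5′ to 3′ on the gene's strand. RefSeq promoter entries were found for 7 of the 8 genes, AZIN1 being the other. Capitals mark matches to the E-box CACGTG. SAT1 is at chrX:23782923-23783222 (+), SRM at chr1:11059969-11060268 (-) and the ODC1 start shown at chr2:10447963-10448262 (-).
SAT1: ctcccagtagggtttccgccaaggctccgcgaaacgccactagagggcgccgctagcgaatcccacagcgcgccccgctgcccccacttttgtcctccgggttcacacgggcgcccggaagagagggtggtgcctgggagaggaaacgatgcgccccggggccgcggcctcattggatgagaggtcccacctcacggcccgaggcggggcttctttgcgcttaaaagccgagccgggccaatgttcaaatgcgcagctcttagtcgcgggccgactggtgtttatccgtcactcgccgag
SRM: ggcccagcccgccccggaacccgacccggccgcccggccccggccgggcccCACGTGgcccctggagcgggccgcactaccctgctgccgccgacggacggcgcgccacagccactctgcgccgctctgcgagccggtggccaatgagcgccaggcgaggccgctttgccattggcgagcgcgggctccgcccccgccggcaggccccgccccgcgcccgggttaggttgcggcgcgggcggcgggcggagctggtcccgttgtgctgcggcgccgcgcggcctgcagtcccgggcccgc
ODC1: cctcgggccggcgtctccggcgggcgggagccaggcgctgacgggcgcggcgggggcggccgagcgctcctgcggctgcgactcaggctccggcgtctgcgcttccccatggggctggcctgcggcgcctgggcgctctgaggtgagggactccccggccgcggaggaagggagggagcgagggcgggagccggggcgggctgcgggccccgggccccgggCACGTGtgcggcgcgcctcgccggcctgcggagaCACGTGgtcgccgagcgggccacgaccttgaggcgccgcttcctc

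The SRM promoter held 1 E-box, with its first base at position -199 from the start, and the ODC1 promoter shown held 2, at positions -29 and 6. The E-box was present in 7.26% of all 35116 promoters of 300 bases. The TEAD core GGAATG, the sequence bound by the DNA-binding partners of YAP, had no match in any of the windows of the 7 genes and occurs in 14% of all promoters. The AP-1 letters TGANTCA had 1 match, in OAZ2 (7.71% of all promoters), TATAAA had 1, in OAZ1 just after the start (11.5%), and the cyclic AMP response element TGACGTCA had none (1.85%). The GC box GGGCGG was in 45% of all promoters and in a window of each of the 7 genes except SAT1. All motifs were searched on both strands, and none holds the letters of another. Letter matches do not measure binding, and sequence outside these windows was not searched. GC content was 66% in the SAT1 window, 82% in SRM and 80.7% in the ODC1 window shown, against a median of 58.7% over all promoters. The RefSeq entry for a second ODC1 start, at chr2:10448278-10448577 (-), held no E-box. The ODC1 matches given here thus depend on the start chosen.

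YAP1 itself stood at 8.47 to 8.65 on the 6 siNT arrays and at 4.18 to 6.21 on the 6 siYAP arrays, the highest of which was siYAP with erastin replicate 2. Array medians lay between 6.49 and 6.52, and arrays of a group correlated at 0.9956 to 0.9986. Of 9 renal and clear cell carcinoma markers 8 were measured, with levels of 8.26 (PAX2) to 13.50 (VIM) and PAX8 at 10.51. Median levels were 3.95, 4.06 and 4.61 for the markers of immune cells, endothelial cells and fibroblasts. RNA integrity was gauged from ACTB controls at both ends of the transcript, whose 3′ value exceeded the 5′ value by 3.35 to 3.71 in siYAP with erastin against 1.49 to 2.82 in siNT with erastin. In DMSO it was 1.49 to 3.14 after silencing and 2.40 to 2.97 in control cells, so those ranges overlapped. GAPDH controls of the same kind differed on average by 0.169 (SD 0.0388) in siYAP with erastin and 0.147 (SD 0.0759) in siNT with erastin. With DMSO the GAPDH means were 0.216 (SD 0.0118) in siYAP and 0.182 (SD 0.0677) in siNT.

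After YAP silencing SAT1 rose, SRM rose less, and 1 of 3 AZIN1 probe sets fell; ODC1, AMD1, SMS, OAZ1 and OAZ2 did not pass the test in either treatment. A probe set was called at an adjusted p under 0.05 in limma, with Benjamini-Hochberg adjustment over all 22215 probe sets. In DMSO 4 of the 15 probe sets were called higher, against 14.4% of all probe sets, and 1 lower, against 12.9%. That is 33.3% called in either direction where the background was 27.4%. Under erastin the counts were again 4 higher (background 16%) and 1 lower (12.9%), or 33.3% against 28.9%. The share of members called was thus near that of the array as a whole, and what stood out was the size of the SAT1 change. The median log2 difference over the 15 was 0.12 in DMSO and 0.06 under erastin, and over all probe sets 0.02 and 0.00.

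**Figure D1:**
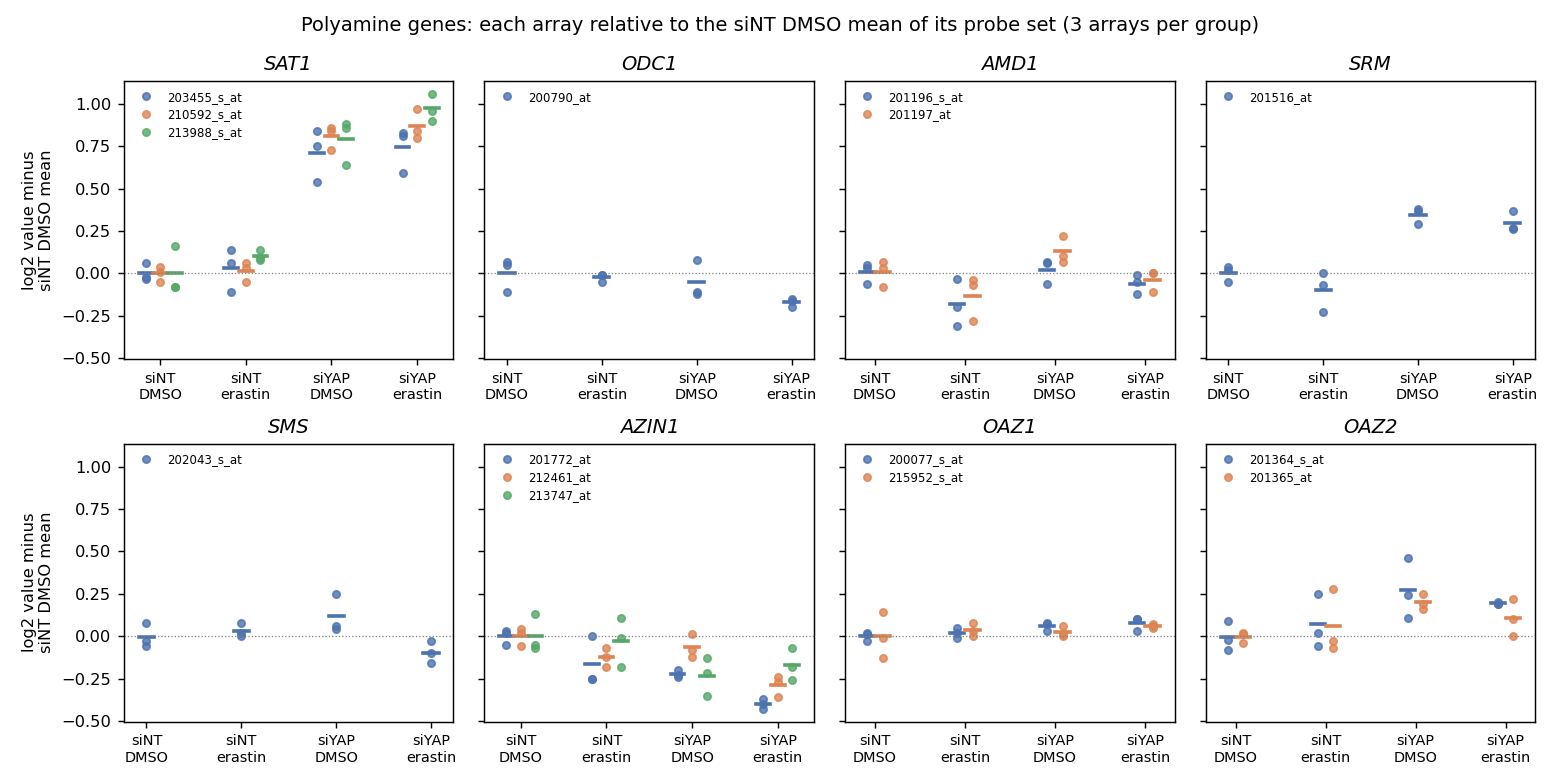
Log2 value of each array minus the siNT DMSO mean of the same probe set, by gene and group; points are arrays, colours are probe sets and bars are means of 3 arrays. In SAT1 and SRM all siYAP arrays lie above all siNT arrays, and the other genes stay within about 0.5 log2 units of the control mean.

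SAT1, the acetyltransferase that starts polyamine breakdown, was measured by 3 probe sets. Probe set 210592_s_at, the brightest, read 10.87, 10.78 and 10.84 on the DMSO arrays of siNT cells against 11.67, 11.56 and 11.69 on those of siYAP cells. In the erastin groups it read 10.86, 10.89 and 10.78 in siNT and 11.67, 11.63 and 11.80 in siYAP. Every siYAP array was above every siNT array, and the nearest arrays were 0.69 apart in DMSO and 0.74 apart under erastin. Mean levels were 10.83 ± 0.04 and 11.64 ± 0.07 in DMSO and 10.85 ± 0.06 and 11.70 ± 0.09 under erastin (SD, n = 3). The difference was 1.76-fold in DMSO (log2 0.81, 95% interval 0.67 to 0.95, limma adjusted p = 1.21e-06) and 1.81-fold under erastin (log2 0.86, 0.72 to 1.00, adjusted p = 8.55e-07).

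The other SAT1 probe sets gave rises of like size. Probe set 203455_s_at read 10.57, 10.49 and 10.48 in siNT cells and 11.26, 11.05 and 11.35 in siYAP cells given DMSO, and 10.65, 10.40 and 10.57 against 11.34, 11.10 and 11.32 in those given erastin. Probe set 213988_s_at read 8.75, 8.75 and 8.99, then 9.71, 9.47 and 9.69, then 8.91, 8.92 and 8.97, then 9.73, 9.79 and 9.89 in the same order of groups. In both, the 6 siNT arrays did not overlap with the 6 siYAP arrays. The first was 1.63-fold higher in DMSO (log2 0.70, SE 0.094, adjusted p = 9.46e-05) and 1.64-fold under erastin (adjusted p = 8.19e-05). The second was 1.73-fold higher in DMSO (log2 0.79, SE 0.084, adjusted p = 1.42e-05) and 1.83-fold under erastin (adjusted p = 6.65e-06). Levels of different probe sets are not comparable, because their probes differ in brightness.

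The submitters' design text describes a zero transformation, in which each silenced array is set against the mean of the controls. On that scale the 9 SAT1 values in DMSO (3 arrays by 3 probe sets) ran from 0.53 to 0.88, with siYAP replicate 2 the lowest for every probe set. The 9 values under erastin ran from 0.56 to 0.96. Among all 22215 probe sets, 3.76%, 4.01% and 5.01% changed more than the 3 SAT1 probe sets in DMSO, and 3.40%, 3.29% and 5.04% did so under erastin, for 210592_s_at, 213988_s_at and 203455_s_at. None of the 3 reached a 2-fold difference. The ACTB values given above differed between siYAP and siNT arrays under erastin and overlapped in DMSO, whereas the mean GAPDH values under erastin were close. The part of RNA integrity in the SAT1 differences was not tested.

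**Figure D2:**
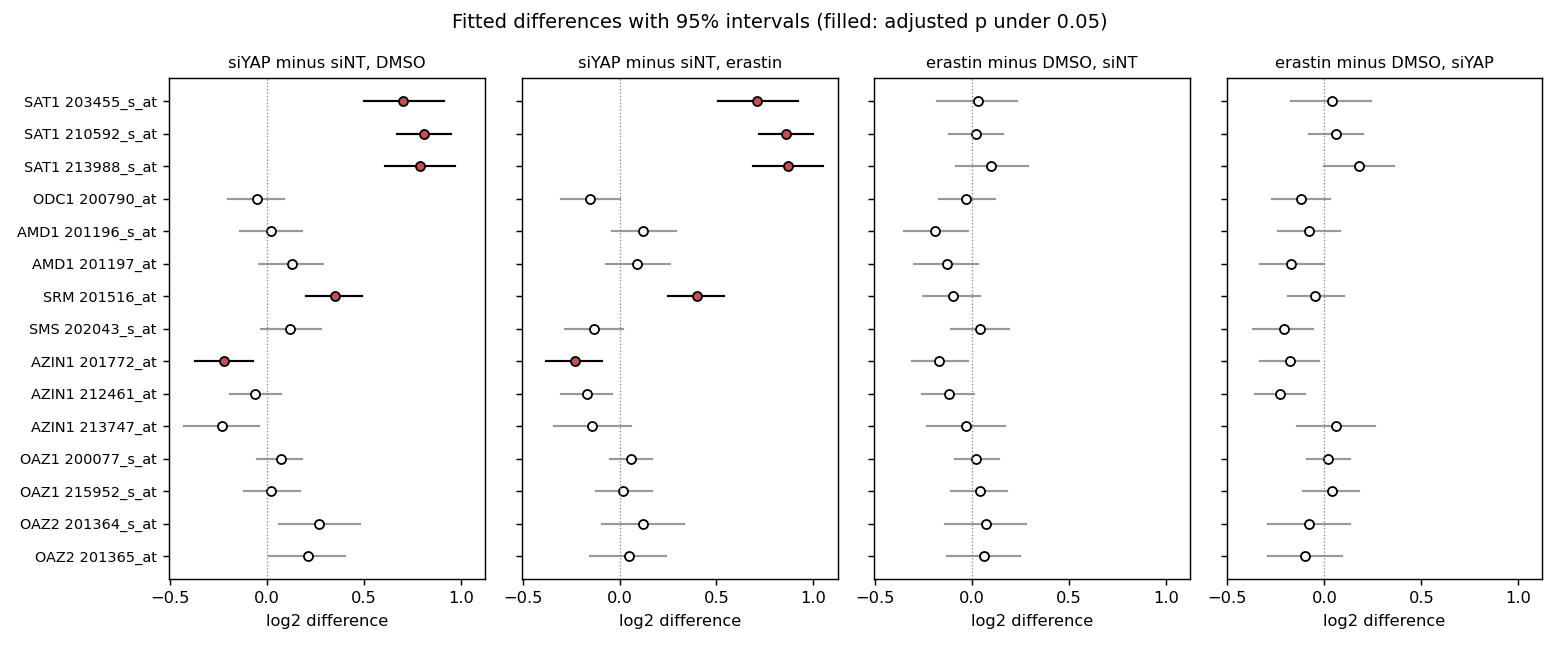
Fitted log2 differences of the 15 probe sets with 95% intervals, 1 panel per comparison; filled points passed an adjusted p of 0.05. The 3 SAT1 probe sets stand at 0.70 to 0.87 in both silencing panels, SRM at 0.35 and 0.40, and no point is filled in the erastin panels.

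Across the synthesis enzymes, SRM was the one that rose. Its probe set 201516_at read 9.54, 9.56 and 9.47 on the DMSO arrays of siNT cells against 9.89, 9.90 and 9.81 on those of siYAP cells. Under erastin it read 9.52, 9.45 and 9.29 in siNT and 9.89, 9.78 and 9.79 in siYAP. No siYAP array came down to the level of any siNT array of either treatment. Spermidine synthase RNA was 1.27-fold higher in DMSO (log2 0.35, 95% interval 0.20 to 0.49, limma adjusted p = 0.00172) and 1.32-fold under erastin (log2 0.40, 0.25 to 0.54, adjusted p = 5.81e-04).

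ODC1, at the entry of the pathway, was measured by probe set 200790_at. It read 12.11, 12.13 and 11.95 in siNT cells and 11.95, 12.14 and 11.94 in siYAP cells given DMSO, and 12.01, 12.05 and 12.05 against 11.90, 11.86 and 11.91 in those given erastin. In DMSO the groups overlapped, with a log2 difference of -0.05 (95% interval -0.20 to 0.09, adjusted p = 0.651). Under erastin the siYAP arrays lay below the siNT arrays, by a log2 difference of -0.15 that did not pass (95% interval -0.30 to -0.00, adjusted p = 0.135). A trended and robust variance model called it (adjusted p = 0.0417).

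AMD1, the decarboxylase that provides the aminopropyl groups, had 2 probe sets. Probe set 201197_at ranged from 10.41 to 10.56 in siNT with DMSO, 10.56 to 10.71 in siYAP with DMSO, 10.21 to 10.45 in siNT with erastin and 10.38 to 10.49 in siYAP with erastin. Its silencing differences were 0.13 (95% interval -0.04 to 0.29) and 0.09 (-0.07 to 0.26), and those of 201196_s_at were 0.02 (-0.14 to 0.18) and 0.12 (-0.04 to 0.29), in DMSO and under erastin. Adjusted p ran from 0.27 to 0.892. Without siNT with erastin replicate 3, the difference of 201196_s_at under erastin was 0.20 and was called (adjusted p = 0.0487).

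SMS, which makes spermine, read 11.54, 11.43 and 11.40 on the DMSO arrays of siNT cells against 11.52, 11.71 and 11.50 on those of siYAP cells (probe set 202043_s_at). With erastin it read 11.46, 11.48 and 11.54 in siNT and 11.43, 11.36 and 11.30 in siYAP. The silencing difference was 0.12 in DMSO (95% interval -0.03 to 0.28, adjusted p = 0.242) and -0.13 under erastin (-0.28 to 0.02, adjusted p = 0.21), where the arrays did not overlap, by 0.02. The interaction (silencing effect under erastin minus that in DMSO) was -0.25 (95% interval -0.47 to -0.04, unadjusted p = 0.025, adjusted p = 0.522) and did not pass.

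Antizymes and their inhibitor form the regulatory arm. AZIN1 had 3 probe sets, of which 201772_at fell. It read 9.06, 9.07 and 8.99 in siNT cells and 8.80, 8.81 and 8.84 in siYAP cells given DMSO, and 8.79, 8.79 and 9.04 against 8.61, 8.67 and 8.64 in those given erastin. Within each treatment the siYAP arrays lay below all siNT arrays. The fall was 1.17-fold in DMSO (log2 -0.22, 95% interval -0.37 to -0.07, limma adjusted p = 0.0284) and 1.18-fold under erastin (log2 -0.23, -0.38 to -0.09, adjusted p = 0.0205).

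These AZIN1 calls were lost without any of several single arrays. In DMSO the adjusted p rose to between 0.053 and 0.0878 without siNT replicate 1 or 2 or any of siYAP replicates 1, 2 and 3, with log2 differences of -0.21 to -0.23. Under erastin it was 0.0592 without siNT replicate 3 (log2 -0.15, over 1.5 times smaller), 0.0693 without siYAP replicate 1, 0.0591 without siYAP replicate 3, and 0.0767 when only the 6 arrays compared were fitted. The brightest AZIN1 probe set, 212461_at, differed by -0.06 in DMSO (95% interval -0.19 to 0.07, adjusted p = 0.548) and by -0.17 under erastin (-0.30 to -0.04, adjusted p = 0.0576). The dim probe set 213747_at, with a mean of 5.48 over all arrays, differed by -0.23 (adjusted p = 0.0784) and -0.14 (adjusted p = 0.298). Some alternatives called them: 5 of 23 for 212461_at under erastin (adjusted p 0.012 to 0.0439) and 5 of 22 for 213747_at in DMSO (0.0167 to 0.0475). All 6 estimates were below 0, and the mean of the 3 probe sets was called lower in both treatments (-0.17, adjusted p = 0.0167, and -0.18, adjusted p = 0.012).

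OAZ1 is the ubiquitous antizyme. Its probe set 200077_s_at lay between 13.27 and 13.35 on the siNT arrays and between 13.33 and 13.40 on the siYAP arrays, and 215952_s_at between 12.72 and 12.99 and between 12.85 and 12.92. Silencing differences were 0.02 to 0.07, with 95% intervals that reached at most from -0.12 to 0.18. Adjusted p ran from 0.419 to 0.872.

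OAZ2, a second antizyme, lay near the threshold in DMSO. Probe set 201364_s_at read 9.27, 9.21 and 9.38 on the DMSO arrays of siNT cells against 9.40, 9.75 and 9.53 on those of siYAP cells; 201365_at read 8.73, 8.78 and 8.79 against 8.96, 9.02 and 8.93. The groups did not overlap in either, by as little as 0.02 in the first. Differences were 0.27 (95% interval 0.06 to 0.48, adjusted p = 0.0537) and 0.21 (0.01 to 0.40, adjusted p = 0.113), neither called. Of 23 alternatives for 201364_s_at 11 called it higher, among them each array centred on its median (adjusted p = 0.0429), and the fits without siNT with DMSO replicate 3 (0.0495), without siNT with erastin replicate 3 (0.0257) and without siYAP with DMSO replicate 1 (0.025). Of 22 alternatives for 201365_at 4 called it higher (adjusted p 0.027 to 0.0432), among them the fit without siNT with erastin replicate 3. Under erastin the groups overlapped for both probe sets, with differences of 0.12 (adjusted p = 0.418) and 0.05 (adjusted p = 0.776).

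The number of members called in DMSO was 8 in place of 5 without siNT with erastin replicate 3, where 29.7% of all probe sets were called in place of 27.4%. That array enters that comparison only through the shared spread. The calls gained were both OAZ2 probe sets and AZIN1 213747_at (-0.23, adjusted p = 0.0475). The array left out was the highest of its group for both OAZ2 probe sets (9.54 and 9.05) and the lowest for AZIN1 213747_at (5.41). For probe sets called with or without it, it was the highest for AZIN1 201772_at (9.04) and the lowest for SRM (9.29). Averaging the silencing difference over both treatments, an analysis added after seeing the data, called 5 members higher and 2 lower, where 20% and 16.8% of all probe sets were called in those directions. The 2 added calls were OAZ2 201364_s_at (0.20, 95% interval 0.05 to 0.35, adjusted p = 0.0379) and AZIN1 213747_at (-0.19, -0.33 to -0.05, adjusted p = 0.0357). ODC1 averaged -0.10 (95% interval -0.21 to 0.00, adjusted p = 0.131).

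Erastin called none of the 15 probe sets in limma, in siNT or in siYAP cells. Of all probe sets 66 (0.297%) were called in siNT cells, 0.221% higher and 0.0765% lower, and 38 (0.171%) in siYAP cells, 0.162% higher and 0.009% lower, so a count of 0 of 15 lay near the background. At an unadjusted p under 0.05, 2 members passed in siNT cells and 4 in siYAP cells, against 8.76% and 9.91% of all probe sets. Differences ran from -0.19 to 0.10 in siNT cells and from -0.23 to 0.18 in siYAP cells. SAT1 differed with erastin by 0.02 to 0.10 in siNT cells and by 0.04 to 0.18 in siYAP cells over its 3 probe sets, and the upper ends of the 95% intervals were at most 0.36. The highest of these, 213988_s_at in siYAP cells, read 9.71, 9.47 and 9.69 with DMSO and 9.73, 9.79 and 9.89 with erastin (adjusted p = 0.505).

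The lowest erastin difference in siNT cells was that of AMD1 201196_s_at (-0.19, adjusted p = 0.506), and in siYAP cells that of AZIN1 212461_at. The latter read 10.84, 10.86 and 10.76 with DMSO and 10.64, 10.70 and 10.75 with erastin in siNT cells, and 10.74, 10.83 and 10.70 with DMSO and 10.58, 10.46 and 10.55 with erastin in siYAP cells. The erastin arrays lay below the DMSO arrays in both, by -0.12 (adjusted p = 0.617) and -0.23 (adjusted p = 0.285), and neither passed. Averaged over both siRNAs, 212461_at differed by -0.18 (95% interval -0.27 to -0.08, adjusted p = 0.138) and 201772_at by -0.17 (-0.28 to -0.07, adjusted p = 0.217). AMD1 averaged -0.15 for 201197_at (adjusted p = 0.386) and -0.13 for 201196_s_at (adjusted p = 0.459). No member was called in that average either, where 0.45% of all probe sets were. These comparisons share arrays with the silencing comparisons, so the values are not independent of them.

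No interaction was called for any of the 15, nor for any of the 22215 probe sets, with a smallest adjusted p of 0.202. At an unadjusted p under 0.05, 1 member (SMS) and 9.03% of all probe sets passed. The SAT1 interactions were 0.01, 0.04 and 0.08, with 95% intervals that ran from -0.28 to 0.34 at most.

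Among the 8 genes, SAT1 alone had a brightest probe set whose group means spanned 0.5 or more (0.87); SRM spanned 0.45 and the others 0.08 to 0.29. Of 1814 genes with a span of 0.5 or more, the 3 whose brightest probe set followed SAT1 most closely over the 12 arrays were ISCU, an iron-sulphur cluster scaffold gene (Pearson r = 0.994), MMP1, an interstitial collagenase gene (r = 0.993), and TPD52L1 (r = 0.993). The arrays fall into siNT and siYAP, so such correlations mostly describe that split. ISCU stood at 11.58 and 11.57 in the siNT groups and 12.07 and 12.11 in the siYAP groups, in DMSO and erastin, and MMP1 at 9.04 and 9.06 against 10.74 and 10.84.

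Related genes were taken from 6 lists of precursor supply, methionine salvage, transport, breakdown, hypusine formation and regulators, of which 40 of 48 genes had 68 probe sets. In DMSO 8 of the 68 were called higher and 12 lower (29.4% against the background of 27.4%), and under erastin 6 and 19 (36.8% against 28.9%). Their median log2 differences were -0.01 and -0.10, against 0.02 and 0.00 over all probe sets. Among all probe sets 14.4% were called higher and 12.9% lower in DMSO, and 16% and 12.9% under erastin. These shares by direction are the background for every list below.

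**Figure D3:**
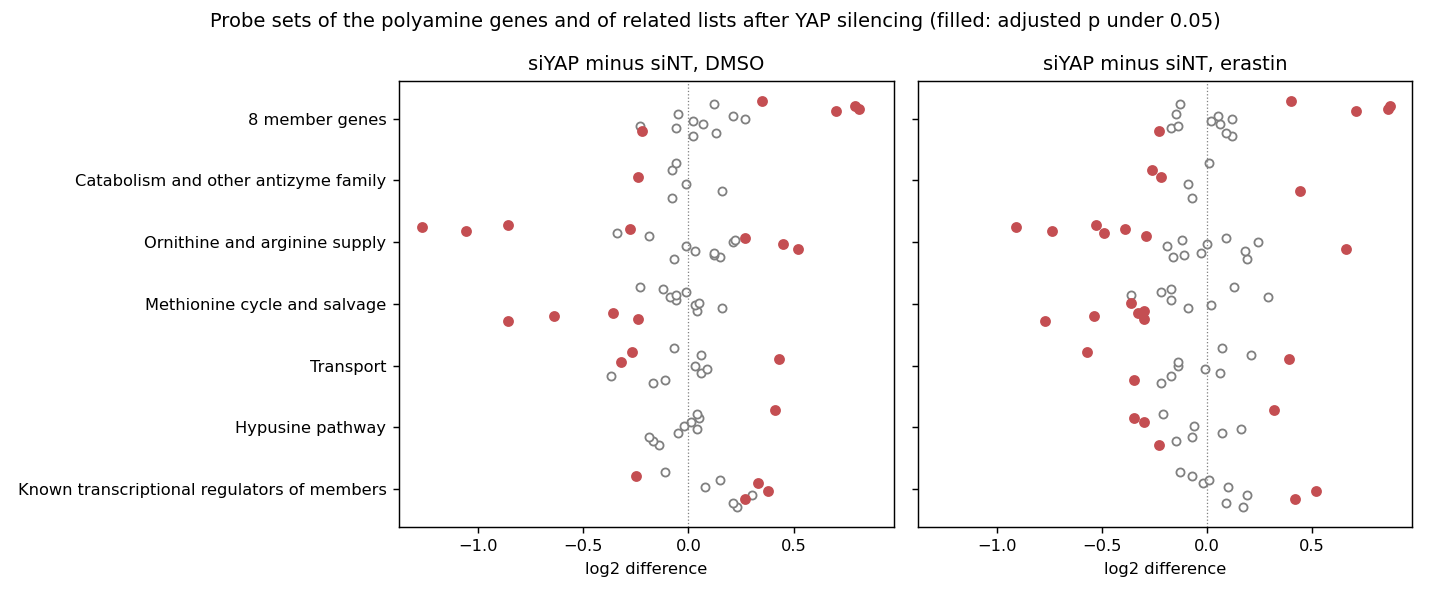
Log2 differences after YAP silencing in DMSO (left) and under erastin (right) for each probe set of the 8 genes and of 6 related lists; filled points passed an adjusted p of 0.05. SAT1 forms the points furthest to the right, at 0.70 to 0.87, and SLC7A1 those furthest to the left, down to -1.27.

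Ornithine and arginine supply had 17 probe sets. In DMSO 3 were higher (background 14.4%) and 4 lower (12.9%), and the 4 were all of SLC7A1. Under erastin 1 was higher (background 16%) and 6 lower (12.9%), of which 5 were of SLC7A1 and the other of PYCR1. SLC7A1, the cationic amino acid transporter that imports arginine, read 12.45, 12.47 and 12.33 in DMSO-treated siNT cells and 11.06, 11.16 and 11.24 in DMSO-treated siYAP cells (probe set 212295_s_at). Those groups were separated by more than a log2 unit, a difference of -1.27 (2.40-fold lower, adjusted p = 6.45e-08). Under erastin the values were 12.52, 12.52 and 12.63 against 11.59, 11.70 and 11.65 (-0.91, adjusted p = 6.99e-07). Of the 5 SLC7A1 probe sets, 4 were called lower in DMSO and 5 under erastin, among them 212290_at (-1.06 and -0.74) and 215979_s_at (-0.86 and -0.53). The probe set called only under erastin, 206566_at (-0.49, adjusted p = 0.021), was dim, with a mean of 4.22 over all arrays.

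ARG2, the mitochondrial arginase that releases ornithine, went the other way in 203946_s_at. It read 5.54, 5.81 and 5.95 in siNT cells and 6.43, 6.20 and 6.24 in siYAP cells given DMSO, and 5.90, 5.63 and 5.87 against 6.42, 6.34 and 6.61 in those given erastin. It rose by 0.52 with DMSO (adjusted p = 0.00378) and by 0.66 with erastin (adjusted p = 7.55e-04). The other ARG2 probe set, 203945_at, was the brighter, with a mean of 7.60 over all arrays against 6.08. It was not called in either, with overlapping arrays (0.03, adjusted p = 0.891, and 0.18, adjusted p = 0.206).

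Methionine salvage, which recycles the methylthioadenosine that SRM and SMS release, was listed together with the methionine cycle. Of the 14 probe sets 4 were lower in DMSO (ADI1, APIP, ENOPH1 and AHCY) and 0 higher, or 28.6% called against 27.4% of all probe sets. Under erastin 6 were lower and 0 higher, or 42.9% against 28.9%, with GOT1 and MAT2A added. Both list shares are of lower calls alone, and 12.9% of all probe sets were called lower in each treatment. Higher calls made up 14.4% of all probe sets in DMSO and 16% under erastin. The MAT2A call came from 200769_s_at (-0.36, adjusted p = 0.0416), and its other probe set, 200768_s_at, differed by 0.02 (adjusted p = 0.883). ADI1, the dioxygenase of the salvage pathway, read 10.22, 10.19 and 10.22 on the DMSO arrays of siNT cells against 9.38, 9.32 and 9.34 on those of siYAP cells. That difference was -0.86 (adjusted p = 4.64e-07), and under erastin it was -0.77 (adjusted p = 1.26e-06). APIP, the dehydratase of the same pathway, fell by 0.64 (adjusted p = 8.87e-05) and, with erastin, by 0.54 (adjusted p = 3.55e-04). ENOPH1, which acts between them, fell by 0.36 and 0.33 (adjusted p = 4.48e-04 and 9.52e-04) and is named because the count was small.

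**Figure D4:**
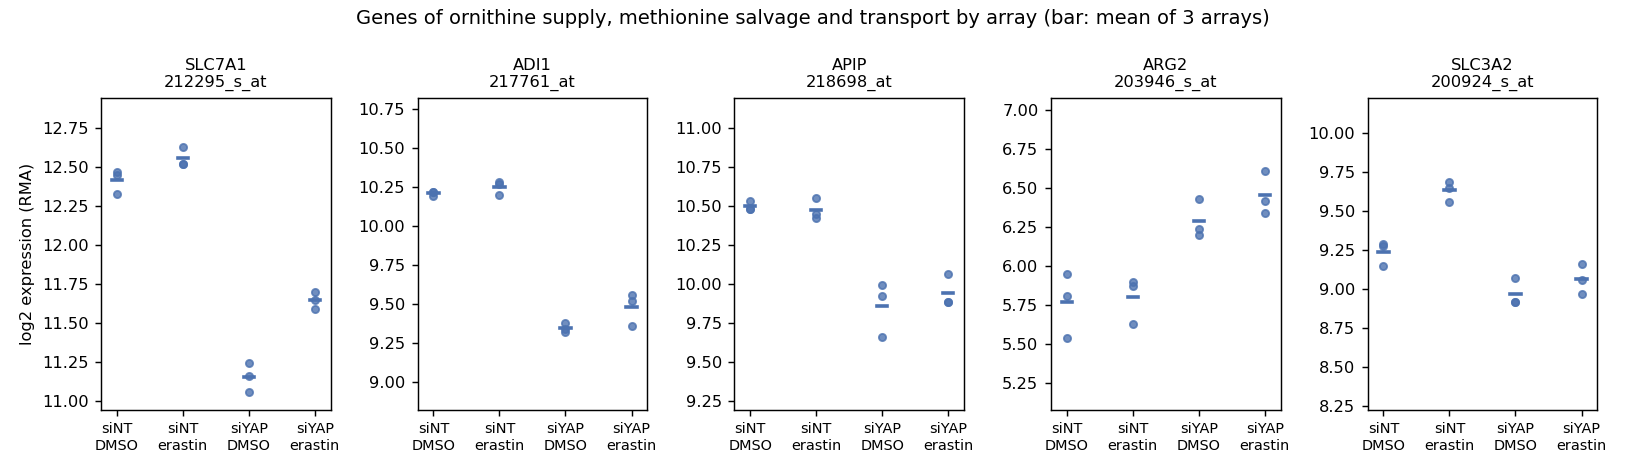
Log2 expression on each array, by group, for SLC7A1, ADI1, APIP, ARG2 and SLC3A2 (1 probe set each; bars are means of 3 arrays; every axis spans 2 log2 units). SLC7A1, ADI1 and APIP lie lower and ARG2 higher on all siYAP arrays than on any siNT array.

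In the transport list 1 of 11 probe sets was higher and 2 lower in each silencing comparison, or 27.3% called against 27.4% of all probe sets in DMSO and 28.9% under erastin. SLC3A2, the heavy chain shared by amino acid exchangers and also linked to polyamine export, read 9.29, 9.28 and 9.15 in siNT with DMSO, 9.65, 9.56 and 9.69 in siNT with erastin, 8.92, 9.07 and 8.92 in siYAP with DMSO, and 9.16, 9.06 and 8.97 in siYAP with erastin. Silenced cells differed from control cells by -0.27 with DMSO (adjusted p = 0.0121) and by -0.57 with erastin (adjusted p = 5.25e-05). The DMSO call was lost without siNT replicate 1 (-0.24, adjusted p = 0.0527) or siYAP replicate 1 (-0.25, adjusted p = 0.0512). With erastin in siNT cells SLC3A2 rose by 0.40 (adjusted p = 0.0433), a call that 15 of 23 alternatives lost, including the removal of any of 11 of the 12 arrays (adjusted p 0.0541 to 0.162). Differences without single arrays were 0.35 to 0.43, and the adjusted p with only the 6 arrays compared was 0.278. In siYAP cells it differed by 0.10 (adjusted p = 0.694), and the interaction of -0.30 did not pass (adjusted p = 0.51).

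Also with erastin, SLC7A1 212295_s_at rose by 0.49 in siYAP cells (adjusted p = 0.00737) and differed by 0.14 in siNT cells (adjusted p = 0.608); the interaction of 0.36 did not pass (adjusted p = 0.444). That rise was lost without siYAP with erastin replicate 2 (0.47, adjusted p = 0.0578) or 3 (0.49, adjusted p = 0.0553), and with only the 6 arrays compared (0.49, adjusted p = 0.0574). It was also lost for the mean of the SLC7A1 probe sets (0.27, adjusted p = 0.124). SLC3A2 and SLC7A1 were the listed genes called with erastin, 1 probe set each of 68 (1.47%) in the comparison named. Of all probe sets 0.297% were called with erastin in siNT cells and 0.171% in siYAP cells.

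Hypusine formation, in which spermidine modifies the translation factor EIF5A, had 10 probe sets. In DMSO 1 was higher (EIF5A2), or 10% called against 27.4% of all probe sets. Under erastin 1 was higher (EIF5A2) and 3 lower (EIF5A 201122_x_at and 201123_s_at, and DHPS 202802_at), or 40% against 28.9%. EIF5A and DHPS had 3 probe sets each. The breakdown list had 6 probe sets for SMOX, PAOX and OAZ3. In DMSO 16.7% of them were called against 27.4% of all probe sets, and under erastin 50% against 28.9%. PAOX 50400_at, the oxidase that acts on acetylated polyamines, was lower in both treatments (-0.24 and -0.22, adjusted p = 0.0188 and 0.0294), whereas the other PAOX probe set, 221941_at, was not called (-0.01 and -0.09, adjusted p = 0.943 and 0.395). Under erastin SMOX, spermine oxidase, was lower as well (210357_s_at, -0.26, adjusted p = 0.0029) and OAZ3 higher (222075_s_at, 0.44, adjusted p = 7.74e-04). Their other probe sets were not called under erastin (SMOX 217074_at, 0.01, adjusted p = 0.95, and OAZ3 213863_s_at, -0.07, adjusted p = 0.634). These genes are named because their lists had few calls.

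Among transcription factors known to act on member genes, 3 of 10 probe sets were higher and 1 lower in DMSO (40% called against 27.4% of all probe sets). Under erastin 2 were higher (20% against 28.9%). MAX, the obligate partner of MYC on E-boxes, was called higher in 2 of its 5 probe sets in both treatments. Its probe set 214108_at rose by 0.38 (adjusted p = 0.00302) and 0.52 (adjusted p = 3.03e-04), and 209332_s_at by 0.27 and 0.42 (adjusted p = 9.73e-04 and 3.03e-05). MYC was the other gene called higher in DMSO (202431_s_at, 0.33, adjusted p = 0.0239), and under erastin it differed by -0.02 (adjusted p = 0.912). PMF1, a co-factor described for SAT1 transcription, was lower in DMSO (202337_at, -0.25, adjusted p = 0.023) and not called under erastin (-0.07, adjusted p = 0.569). MYC, PMF1 and MAX 209332_s_at are named because the list had few calls.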

How the data were processed

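Expression was measured on 12 one-colour Affymetrix arrays, 3 in each of 4 groups taken from the sample titles. Per the submitters' processing notes, the authors used RMA in Affymetrix Expression Console, and the deposited values are log2 expression; the software version is not given in the sources used here. The deposited table held 22277 probe sets, of which 62 array controls were left out. A platform annotation named exactly 1 gene for 19065 of the rest, more than 1 for 1043 and no gene for 2107. RefSeq identifiers matched 19053 of the first and changed 0 symbols.

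A mean per group was fitted to every probe set over all arrays with limma 3.58.1 in R 4.3.3 (8 residual and 4.27 prior degrees of freedom). Tests were two-sided, and Benjamini-Hochberg adjustment ran over all 22215 probe sets within a comparison; every adjusted p given is limma's. In simulations, silencing in DMSO and under erastin called 8% and 12% of true log2 changes of 0.25, and 64% and 76% of 0.5. Erastin in siNT and siYAP cells called 8% and 10% of changes of 0.25, and 58% and 46% of 0.5. The interaction called 0% and 38% at these sizes. False calls made up 4.03% to 5.19% of simulated calls. A missing call therefore says little about a change near 0.25. The number of arrays limits precision: the median SE of a log2 difference was 0.0845. Named genes were the members, YAP1 and up to 4 genes per related list with a called log2 change of at least 0.5. The 3 genes most like a member that spanned 0.5 or more were also named. Other listed genes and probe sets, among them those in lists with few calls, were named after their values were seen. The members and lists were chosen with earlier results of these data known. Alternatives were the 6 arrays alone, the replicate block, array centring, quantile normalization, a filter on dim probe sets, gene-level values, 2 variance settings, a 2-fold minimum and leaving out each array. The mean of both treatments, or of both siRNAs, was added after seeing the data. It is a different contrast and is counted among the alternatives.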

Additional observations from a re-analysis of the deposited data

How the results depend on the processing

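For SAT1 and SRM, all calls after YAP silencing kept their direction and an adjusted p below 0.05 (at most 0.00882) under every alternative except the 2-fold minimum. That covers 172 results, each 1 probe set in 1 comparison under 1 alternative. They are not separate fits, since the same 22 or 23 alternatives, the 2-fold minimum included, served all of these probe sets. Under that minimum 0 members were called in either treatment. No named probe set turned direction in a called result. Members called in DMSO were 3 of 8 genes with the brightest probe set per gene, where 4030 genes (33.7%) were called in all, and 8 of 15 probe sets with array weights, where 32.9% of all were called; leaving out each array gave 4 to 8, with 22.9% to 29.7% of all called. Under erastin they were 3 of 8 genes with the brightest probe set, where 34.9% of all genes were called. With probe sets averaged per gene they were also 3 of 8, against 33.3% of all genes. Leaving out each array gave 4 to 5 of 15 probe sets, with 22.9% to 29.1% of all called. Calls among all 11963 genes with the mean of probe sets were 3896 in DMSO and 3986 under erastin, and 4173 under erastin with the brightest. Gene-level fits test fewer features. The 2-fold minimum left 495 probe sets in each silencing comparison. With erastin in siNT cells the 66 calls became 10 with only the 6 arrays, 33 with the replicate block, 124 without the dimmest 30%, 170 with a trended and robust variance, 186 with array weights, 5 with the 2-fold minimum, 100 as the mean of both siRNAs and 34 to 50 without single arrays. In siYAP cells the 38 became 88 with the trended variance, 70 with array weights, 10 with the 2-fold minimum, 100 as the mean of both siRNAs and 19 to 49 without single arrays. The interaction gave 7 and 3 calls with the trended variance and array weights, and 0 to 1 without single arrays. The cause of these shifts was not tested.

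Replicate numbers did not pair the samples: of 18 same-number pairs of arrays 3 had deviations from the group mean that correlated over 0.1. With the replicate block, 5704 and 6016 probe sets were called after silencing in DMSO and under erastin, 30 with erastin in siYAP cells and 0 for the interaction, and members called stayed at 5, 5, 0 and 0; in siNT cells it was 33, with 0 members.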
